A study of Mus musculus with 7 samples.

Results

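The guanylate-binding proteins were described gene by gene in mouse gliomas measured by single-cell RNA sequencing. All 10 family members in the gene list of the deposited tables (Gbp2, Gbp2b, Gbp3, Gbp4, Gbp5, Gbp6, Gbp7, Gbp8, Gbp9 and Gbp10) were taken by symbol, of 32285 genes in all, whatever their values. Each of the 7 libraries pooled dissociated brain tumours of at least 2 wild-type C57BL/6 mice, 7 to 10 weeks old, collected at about day 14 of tumours grown from NSCG-mCherry cells. NSCG is a mouse glioma line with the EGFRvIII form of the EGF receptor, a stated loss of Arf/Ink4a and an mCherry tag, and every group carries tumours of this 1 line. Untreated mice gave 1 library (UT). Mice given an IgG2b isotype antibody at 10 mg/kg gave 2 libraries (IgG). Controls of the BPI experiment were gavaged with diluent too, and which IgG library they gave was not stated. Another 2 libraries (BP) came from mice given B20, which binds VEGF, at 5 mg/kg and anti-PD-L1 at 10 mg/kg. The BPI library added IPI-145, an inhibitor of the delta and gamma forms of PI3K, at 10 mg/kg daily by gavage to those antibodies. The CD40 library came from mice given 2 doses of 100 µg of an agonist antibody against CD40, and whether a dendritic cell vaccine went with it was not stated. IgG and BP antibodies were given every 3 days from day 6 or 7 for 3 rounds.

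Guanylate-binding proteins are large GTPases that cells make in response to interferons, above all interferon-gamma. They gather on the membranes of vacuoles that hold bacteria or parasites and on bacteria in the cytosol, where they help to break these membranes and to start inflammasomes. Elements known from interferon-induced genes include gamma-activated sites (GAS) and interferon-stimulated response elements (ISRE), the latter bound by IRF factors. Tumour cells, myeloid cells, vessel cells and lymphocytes can all make them.

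The family lies in 2 blocks of the GRCm38 genome, per the GENCODE vM21 annotation. The chromosome 3 block spans 144031 bases on the plus strand. It holds Gbp5 (142493978 to 142522344), Gbp7 (142530342 to 142550149), Gbp3 (142560026 to 142573209), Gbp2b (142594847 to 142619179) and Gbp2 (142620602 to 142638008). The chromosome 5 block spans 279549 bases on the minus strand. It holds Gbp8 (105014150 to 105139540), Gbp9 (105077630 to 105139539), Gbp4 (105115767 to 105139586), Gbp10 (105215699 to 105239533) and Gbp6 (105270702 to 105293698).

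RefSeq windows (GRCm38.p6), from 250 bases before to 50 bases after a start site, were on hand for the 5 members on chromosome 3. Those of Gbp2, Gbp5 and Gbp7 are printed because the levels of these 3 are followed through the main classes, and because interferon signals are known to act at such elements. The windows below are on the plus strand. Capitals mark matches on either strand to 2 motifs. The ISRE-type word is GAAA, any 2 bases and GAAA again, which reads as TTTC, any 2 bases and TTTC on the other strand, as in all matches here. The GAS-type word is TTCNNNGAA, the same on both strands. No marked ISRE-type match overlapped a GAS-type match.
Gbp2, chr3:142620413-142620712: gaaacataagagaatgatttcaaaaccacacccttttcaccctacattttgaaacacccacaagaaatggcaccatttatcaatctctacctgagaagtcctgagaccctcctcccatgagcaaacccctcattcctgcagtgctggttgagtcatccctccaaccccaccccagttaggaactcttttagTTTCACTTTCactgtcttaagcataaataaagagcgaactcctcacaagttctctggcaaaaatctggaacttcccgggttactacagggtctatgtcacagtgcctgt
Gbp5, chr3:142496684-142496983: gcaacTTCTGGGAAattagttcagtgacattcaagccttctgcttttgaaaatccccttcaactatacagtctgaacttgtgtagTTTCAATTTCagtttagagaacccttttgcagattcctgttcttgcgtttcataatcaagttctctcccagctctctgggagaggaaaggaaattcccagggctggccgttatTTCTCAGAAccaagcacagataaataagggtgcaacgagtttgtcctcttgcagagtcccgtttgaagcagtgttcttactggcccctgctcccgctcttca
Gbp7, chr3:142530086-142530385: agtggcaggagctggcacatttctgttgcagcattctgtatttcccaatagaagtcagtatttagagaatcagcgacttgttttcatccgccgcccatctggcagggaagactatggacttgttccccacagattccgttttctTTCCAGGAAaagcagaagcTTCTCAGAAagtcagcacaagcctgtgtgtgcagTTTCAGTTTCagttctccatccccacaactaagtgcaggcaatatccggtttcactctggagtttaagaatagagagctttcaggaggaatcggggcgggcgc

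In the Gbp2 window TTTCACTTTC started at position -59 from the start site. Gbp5 carried TTTCAATTTC at -165 with GAS-type words at -245 and -52. Gbp7 carried TTTCAGTTTC at -53 with GAS-type words at -106 and -87. The windows of Gbp2b and Gbp3 held ISRE-type words at -137 and at -45, the latter overlapping a second at -39, and no GAS-type word. A further RefSeq start of Gbp3 held neither word. The ISRE-type word occurred in 3.44% of 32851 RefSeq promoter windows of the same length, the GAS-type word in 8.3% and both in 0.454%. A match is a description of the letters and not a shown binding site.

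Counts of close copies carry a limit. Over the last 500 bases of the transcripts, where 3′ reads fall, 77.8% of the 50-base words of Gbp6 occurred also in Gbp10 and 88.9% of those of Gbp10 in Gbp6. All of the Gbp10 words occurred in Gm43302, an annotated gene that the count tables do not list. Values for Gbp6 and Gbp10 are therefore uncertain. Gbp4, Gbp8 and Gbp9 overlap one another on the same strand, and Gbp4 shared 6.43% of its words with Gbp6. Gbp5 shared 5.99% of its words with Grem1. Gbp2, Gbp2b, Gbp3, Gbp7, Gbp8 and Gbp9 shared no such word with another gene.

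Depth ran from 68997476 to 186793886 UMIs (unique molecular identifiers, 1 per captured RNA molecule) per library. Filtering and removal of 3207 doublets left 48588 cells, and any pair of libraries shared 0 to 26 cell barcodes. UT stood apart, sharing 0 to 3 with each other library, while the other 6 shared 10 to 26 with one another. Of all listed barcodes, 1.39% to 7.71% were found in the other list of a pair that included UT, and 34.3% to 55.8% in pairs of the other 6. UT thus drew on another set of barcodes, and what comes with that cannot be told apart from its lack of treatment in any UT value. Clusters were named "X-like" from marker genes, and 10.5% of cells stayed unnamed, from 4.35% in BP replicate 1 to 26.3% in UT. The monocyte/macrophage markers summed to 14000 to 20900 CPM in the class of that name. CPM are UMIs of a gene per 1000000 UMIs of the class in that library, and because 3′ UMIs count molecules they were not scaled by gene length. The monocyte/macrophage-like cells of BP replicate 1 came mostly from cluster 13, which held almost no other library, while those of the other libraries came mostly from cluster 11. By the library numbers in the labels, IgG replicate 1 runs on into BP replicate 2 and BPI, and CD40 runs on into IgG replicate 2, whereas BP replicate 1 and UT stand alone. Family sums are given with the ratios within these sets. A pooled library counts as 1 replicate, so p-values measure the spread between libraries, and the BPI, CD40 and UT groups, with 1 library each, borrow their spread from IgG and BP.

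**Figure D1:**
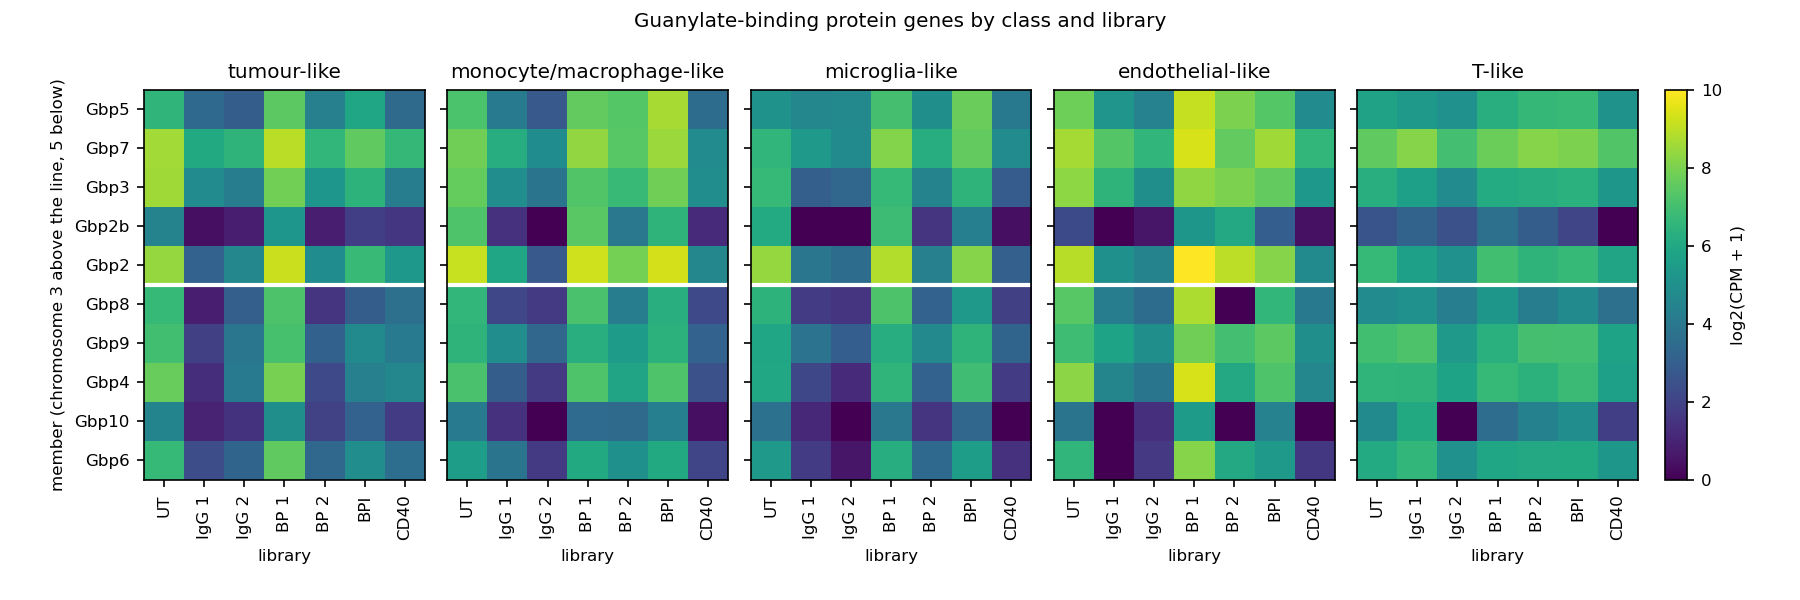
Level of each of the 10 members (rows) in each library (columns) for the 5 cell classes (panels), as log2 of CPM plus 1. UT and BP replicate 1 are high columns in every panel but the T-like one, which varies least. BPI is high too in myeloid and endothelial-like cells. BP replicate 2 is high in monocyte/macrophage-like cells and, on few UMIs, in endothelial-like cells.

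In tumour-like cells, from 2624 in UT to 5942 in IgG replicate 2, the family was high in UT and BP replicate 1, intermediate in BPI and low in the other 4 libraries. Summed over the 10 members, the level was 1781 CPM in UT, 122 and 185 CPM in IgG (replicate 1, then 2, here and below), 2284 and 209 CPM in BP, 538 CPM in BPI and 233 CPM in CD40. The IgG mean was 154 ± 44.5 CPM and the BP mean 1250 ± 1470 CPM (SD, n = 2 each), so the BP libraries lay further apart than the group means. Within the consecutively named libraries, BP replicate 2 was 1.71 times IgG replicate 1, BPI was 4.4 times IgG replicate 1 and CD40 was 1.26 times IgG replicate 2.

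Gbp2, which coats pathogen vacuoles and bacteria, stood in tumour-like cells at 343 CPM in UT, 7.96 and 23.5 CPM in IgG, 590.4 and 28.5 CPM in BP, 109 CPM in BPI and 39.4 CPM in CD40. Every other library lay above both IgG libraries, BP replicate 2 by little. Gbp7, a member known from defence against Toxoplasma, was the most abundant in the IgG libraries, at 66.7 and 89.2 CPM, against 390.3 CPM in UT, 502 and 97.8 CPM in BP, 189.8 CPM in BPI and 98.9 CPM in CD40. It made up a mean of 38.8% of the family's UMIs in tumour-like cells, the largest share of any member there. Gbp3, another member of the chromosome 3 block, read 385 CPM in UT, 27.4 and 17.4 CPM in IgG, 232 and 37.3 CPM in BP, 86.5 CPM in BPI and 17.2 CPM in CD40. CD40 was the 1 library below both IgG libraries for Gbp3.

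Gbp5, which promotes assembly of the NLRP3 inflammasome, read 91.3 CPM in UT, 9.60 and 6.66 CPM in IgG, 178 and 19.7 CPM in BP, 60.2 CPM in BPI and 9.97 CPM in CD40. Gbp4, described as a brake on IRF7, read 201 CPM in UT, 1.47 and 16.0 CPM in IgG, 246 and 3.66 CPM in BP, 19.6 CPM in BPI and 23.5 CPM in CD40. For Gbp4 the BP and IgG libraries overlapped, since BP replicate 2 lay below IgG replicate 2. The same overlap held for Gbp2b, Gbp8 and Gbp9. Gbp2b, the gene of mouse GBP1, was the scarcest chromosome 3 member, lowest in IgG replicate 1 (0.338 CPM) and highest in BP replicate 1 (37.5 CPM). Gbp6, Gbp8, Gbp9 and Gbp10 ranged over the 7 libraries from 4.20 to 186 CPM, 0.789 to 146 CPM, 2.75 to 136 CPM and 0.944 to 30.4 CPM, each with IgG replicate 1 lowest and BP replicate 1 highest.

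Against IgG in tumour-like cells, both BP libraries lay above both IgG libraries for 6 of 10 members, against 9.42% of all genes tested. UT lay above both for 10 members (39.6% of genes), BPI for 9 (16.7%) and CD40 for 9 (46.4%). The median log2 fold change of the members was 3.63 for BP, 2.28 for BPI, 4.02 for UT and 0.79 for CD40, against 0.00048, -0.052, -0.059 and 0.00068 over all genes tested. Without BP replicate 1 the BP median was 0.63, so it rests on that library. The CD40 median was 0.43 without IgG replicate 1 and 1.64 without IgG replicate 2. No member passed edgeR's quasi-likelihood test at an adjusted p of 0.05 in any of these comparisons, nor did any other gene (0.0% of 20351 for BP, BPI and CD40 and 0.0% of 20113 for UT). At an unadjusted p under 0.05 there were 6 members for BP (1.89% of genes), 1 for BPI (0.958%), 7 for UT (12.0%) and 0 for CD40 (0.0541%). DESeq2 called 5 members for BP (0.388% of genes), 0 for BPI (0.0295%), 6 for UT (4.78%) and 0 for CD40 (0.0%). BPI against BP called no member (edgeR 0.0% and DESeq2 0.0% of genes), and none had an unadjusted p under 0.05 (0.152%). For Gbp2 the log2 fold change of BP over IgG was 4.20 ± 1.45 (SE; edgeR adjusted p = 1.0).

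Tumour-like cells came from different clusters in different libraries. Those of UT were mostly in clusters 2 and 7, those of BP replicate 1 in cluster 3 and those of IgG replicate 2 and CD40 in clusters 9, 10, 23 and 26. Clusters 20, 21 and 22, each named on only 3 of 10 tumour markers, held 4344 of 4448 tumour-like cells of IgG replicate 1, 3944 of 4115 of BP replicate 2 and 4079 of 4233 of BPI, but at most 18 of any other library. Tumour markers summed to 437, 404 and 344 CPM in those 3 libraries and to 1010 to 1310 CPM in the other 4. With these clusters left out, which kept 104 cells of IgG replicate 1, 171 of BP replicate 2 and 154 of BPI, the members' median log2 fold change was 3.05 for BP, 2.76 for BPI and 3.51 for UT. By edgeR 0 members were then called for BP (0.0672% of genes) and 0 for BPI (0.0414%), with 10 at an unadjusted p under 0.05 in each (5.77% and 3.35%), and 10 were called for UT (2.72%). That fit was added after the values had been seen.

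Part of the BPI level came from 1 cluster. Cluster 20 (1475 cells, 1035 of them from BPI) had interferon-response genes such as Rsad2 and Cxcl10 among its leading genes. Gbp2 stood there at 222 CPM, Gbp5 at 136 CPM and Gbp7 at 339 CPM. With the cluster left unnamed, the members' median log2 fold change was 1.74 for BPI and 3.77 for BP, and no member passed.

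Several marker lists of other cells moved with these values in tumour-like cells, and others did not. The monocyte/macrophage list (12 of 12 markers with a UMI) summed to 110 CPM in UT, 16.2 and 8.16 CPM in IgG, 119 and 29.0 CPM in BP, 47.7 CPM in BPI and 14.1 CPM in CD40. Those sums stand against 14000 to 20900 CPM in monocyte/macrophage-like cells. The T list summed to 7.07 CPM in UT, 1.62 and 1.69 CPM in IgG, 9.41 and 2.58 CPM in BP, 4.8 CPM in BPI and 3.09 CPM in CD40. The NK list read 2.5 CPM in UT, 0.507 and 0.503 CPM in IgG, 5.44 and 0.79 CPM in BP, 2.25 CPM in BPI and 0.711 CPM in CD40. The astrocyte list, at 810 CPM in UT, 36.8 and 220 CPM in IgG, 331 and 26.9 CPM in BP, 31.1 CPM in BPI and 203 CPM in CD40, was likewise highest in UT and BP replicate 1. In BPI, however, the astrocyte list lay below both IgG libraries. The microglia list did not follow the family. It read 96.4 CPM in UT, 76.2 and 132 CPM in IgG and 77.3 and 82.2 CPM in BP. In BPI it read 93.3 CPM and in CD40 167 CPM. An upper estimate of free RNA was 0.857% to 3.08% of the family's UMIs in tumour-like cells. The part of these lists and of free RNA in the result was not tested.

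**Figure D2:**
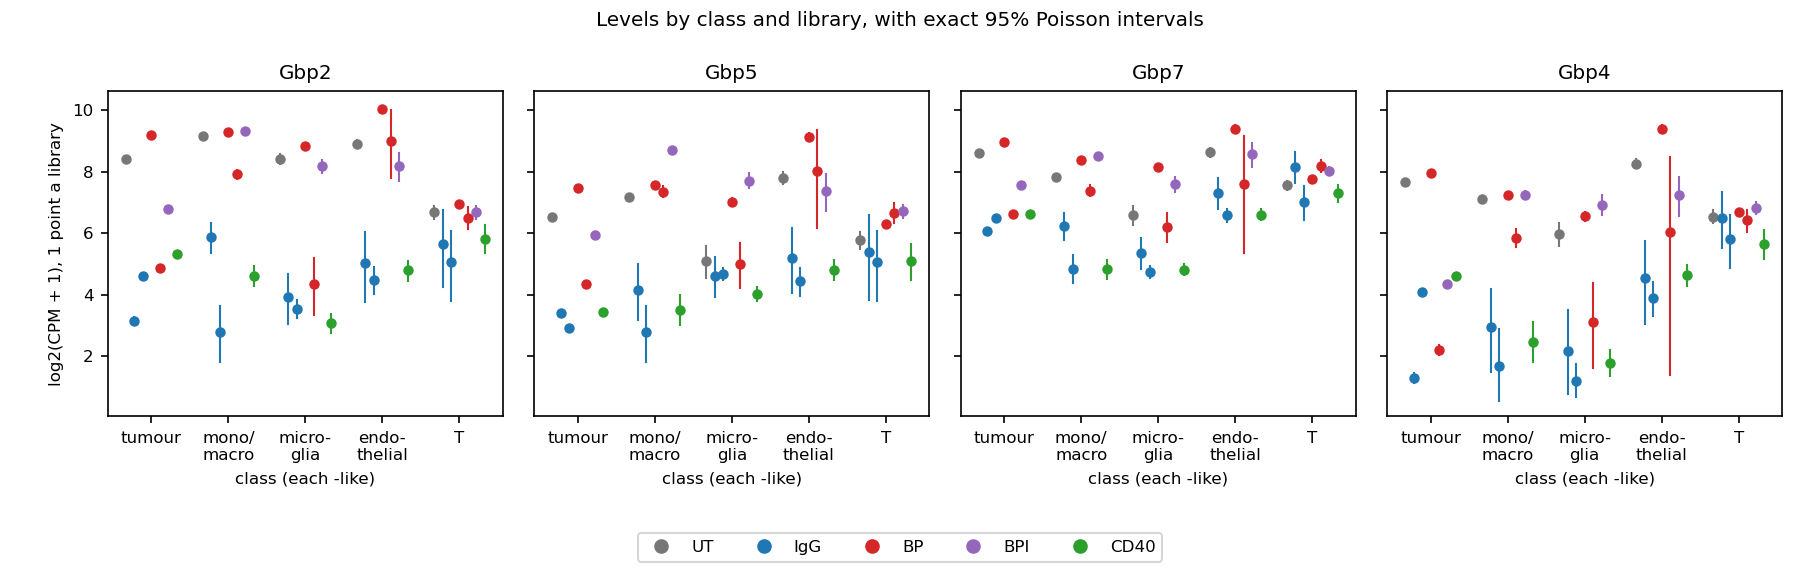
Log2 of CPM plus 1 of Gbp2, Gbp5, Gbp7 and Gbp4 in each library and class, with exact 95% Poisson intervals that cover counting error only. In tumour-like cells BP replicate 2 sits near IgG while BP replicate 1 and UT sit high, and in T-like cells the libraries lie closer together.

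In monocyte/macrophage-like cells the family was high in UT, both BP libraries and BPI. The summed level was 1681 CPM in UT, 233 and 68.4 CPM in IgG, 1920.5 and 849.5 CPM in BP, 2141 CPM in BPI and 112 CPM in CD40. Both BP libraries, BPI and UT lay above both IgG libraries, and CD40 lay between the IgG libraries. The means were 151 ± 116 CPM for IgG and 1380 ± 757 CPM for BP (SD, n = 2 each), with 78 and 67 cells behind the IgG values. Within the consecutively named libraries BP replicate 2 was 3.65 times and BPI 9.2 times IgG replicate 1, and CD40 was 1.63 times IgG replicate 2.

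Gbp2 read 569.7 CPM in UT, 57.3 and 5.89 CPM in IgG, 622 and 240.3 CPM in BP, 647 CPM in BPI and 23.6 CPM in CD40 in monocyte/macrophage-like cells. Gbp5 read 144 CPM in UT, 16.9 and 5.89 CPM in IgG, 190.1 and 162 CPM in BP, 413 CPM in BPI and 10.5 CPM in CD40. Gbp5 was the member in which BPI stood highest over the other libraries. Gbp7 read 228 CPM in UT, 74.2 and 28.0 CPM in IgG, 336 and 167 CPM in BP, 361 CPM in BPI and 27.5 CPM in CD40.

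Gbp3 and Gbp4 reached 229.8 and 152 CPM at their highest among monocyte/macrophage-like cells, and each had both BP libraries above both IgG libraries. Gbp2b read 150.5 CPM in UT, 1.69 and 0 CPM in IgG, 173 and 15.0 CPM in BP, 90.8 CPM in BPI and 1.31 CPM in CD40. Gbp8 read 98.6 CPM in UT, 3.37 and 2.21 CPM in IgG, 138 and 18.1 CPM in BP, 77.2 CPM in BPI and 3.61 CPM in CD40. For both, BP replicate 2 lay nearer to IgG than BP replicate 1 did. Gbp6 ranged from 2.21 to 65.9 CPM and Gbp10 from 0 to 18.9 CPM.

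In monocyte/macrophage-like cells, both BP libraries lay above both IgG libraries for 10 of 10 members (13.6% of genes tested). UT and BPI each lay above both IgG libraries for 10 (24.6% and 18.8% of genes) and CD40 for 2 (30.3%). The median log2 fold change was 4.05 for BP, 5.18 for BPI and 4.39 for UT, against 0.044, -0.011 and 0.0065 over all genes. For CD40 it was -0.15 against -0.0078. For UT against IgG, 3 members rose by edgeR's test, in which 0.259% of 12756 genes were called, 0.235% higher. They were Gbp4 (log2 fold change 5.53 ± 0.72, adjusted p = 0.0373), Gbp5 (4.16 ± 0.61, adjusted p = 0.0477) and Gbp3 (3.67 ± 0.54, adjusted p = 0.0477). Without IgG replicate 2 the test called 2 members (0.263% of genes), without IgG replicate 1 it called 10 (3.79%), without BP replicate 1 or 2 it called 10 (6.62% and 9.89%), with cells of at least 2000 UMIs it called 1 (0.0942%), and with free RNA subtracted it called 0 (0.0581%). UT's separate set of barcodes bears on each of these counts.

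No member passed for BP, BPI or CD40 against IgG in these cells, nor did any other gene (0.0% of 11919 in each). With a replicate block edgeR did call members for BP, as the closing section gives. With no filter on low counts edgeR called 10 members for BP (1.97% of genes), 10 for BPI (2.8%) and 0 for CD40 (0.196%). With BP all 10 members had an unadjusted p under 0.05 (8.06% of genes), with BPI all 10 did (10.9%) and with CD40 none did (0.982%). Every count of 10 members in this class includes Gbp2b and Gbp10, which had almost no UMIs in its IgG cells and so no usable baseline. DESeq2 called 6 members for BP (1.05% of genes), 7 for BPI (2.3%), 0 for CD40 (0.0252%) and 8 for UT (2.08%). With BPI the edgeR adjusted p came to 0.0603 for Gbp5 (log2 fold change 5.84 ± 0.63), Gbp4 (5.83 ± 0.73) and Gbp3 (4.04 ± 0.54). BPI against BP gave no called member (0.0% of genes by edgeR, 0.00839% by DESeq2, which called no member either). Gbp5 (log2 fold change 1.64 ± 0.54) and Gbp3 (1.25 ± 0.50) were the 2 with an unadjusted p under 0.05 there (2.15% of genes). BP, BPI, CD40 and UT comparisons share the same IgG libraries.

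These counts depend on which libraries are kept. Leaving out 1 library at a time, edgeR called 10 members for BP in monocyte/macrophage-like cells without IgG replicate 1 (3.1% of genes) or BP replicate 2 (7.85%), and 0 without IgG replicate 2 or BP replicate 1 (0.0% each). For BPI it called 10 without IgG replicate 1 (3.8%) or BP replicate 2 (8.46%), 7 without BP replicate 1 (1.49%) and 0 without IgG replicate 2 (0.0564%). The share of all genes called moved with the members' count. Microglia markers in this class summed to 746 CPM in UT, 1440 and 2990 CPM in IgG, 441 and 948 CPM in BP, 616 CPM in BPI and 2150 CPM in CD40, so the class held more of them where the family was low. Endothelial markers there (10 of 10 with a UMI) summed to 188 CPM in UT, 79.3 and 52.3 CPM in IgG, 585 and 131 CPM in BP, 161 CPM in BPI and 82.3 CPM in CD40. The T list ranged from 4.37 CPM in BP replicate 2 to 35.8 CPM in UT. The part of these lists in the result was not tested.

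**Figure D3:**
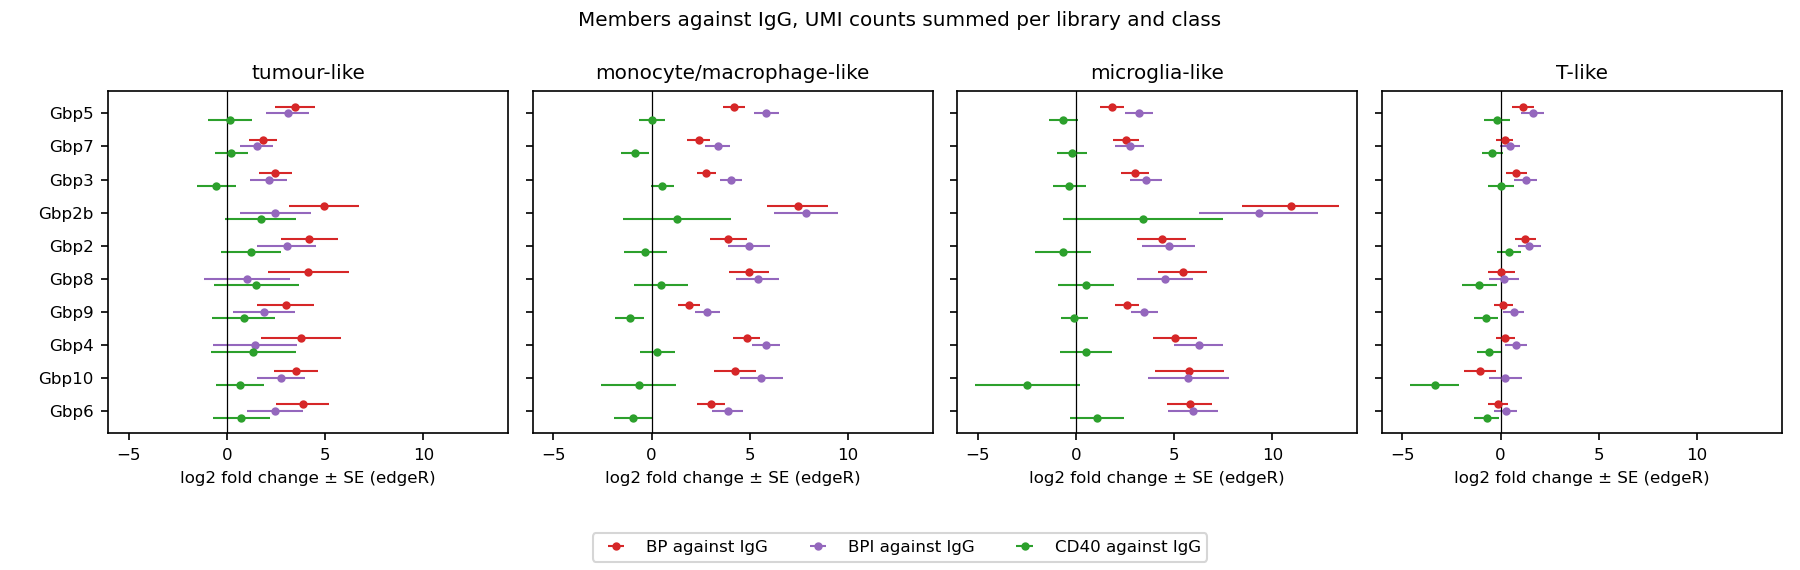
Log2 fold change over IgG (edgeR, bars are 1 SE) of each member for BP, BPI and CD40 in the 4 classes tested. All BP and BPI points in tumour-like, monocyte/macrophage-like and microglia-like cells lie above 0, CD40 points lie on both sides of 0, and no member passed the threshold of adjusted p under 0.05 in any of the 4 panels.

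Microglia-like cells, the brain's resident macrophages, followed a similar order, at lower levels in each library but IgG replicate 2. The family summed to 900.01 CPM in UT, 107 and 80.6 CPM in IgG, 1491 and 199 CPM in BP, 1106 CPM in BPI and 72.2 CPM in CD40. UT, BP replicate 1 and BPI stood high, BP replicate 2 was above both IgG libraries and CD40 was below both. BP replicate 2 was 1.85 times and BPI 10.3 times IgG replicate 1, and CD40 was 0.896 times IgG replicate 2.

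In microglia-like cells Gbp2 read 338 CPM in UT, 14.2 and 10.7 CPM in IgG, 456 and 19.3 CPM in BP, 288 CPM in BPI and 7.43 CPM in CD40. Gbp5 read 33.1 CPM in UT, 23.6 and 24.8 CPM in IgG, 130.04 and 30.9 CPM in BP, 208 CPM in BPI and 15.4 CPM in CD40. UT thus stood well above IgG for Gbp2 but near it for Gbp5. Gbp7 read 94.9 CPM in UT, 40.1 and 25.6 CPM in IgG, 284 and 73.4 CPM in BP, 192 CPM in BPI and 27.3 CPM in CD40.

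No Gbp2b UMI was seen in the microglia-like cells of either IgG library. Against a floor of 3 UMIs over both IgG libraries, the observed Gbp2b level was 287-fold higher in BP and 195-fold higher in UT. In BPI it was 54.9-fold higher, on 13 UMIs. Of the 429 Gbp2b UMIs of BP, 428 came from BP replicate 1 (114 CPM) and 1 from BP replicate 2 (1.93 CPM, against an IgG floor of 0.35 CPM). The BP value thus rests on BP replicate 1. The floor covers counting error in IgG only, so these folds are not lower bounds. The exact 95% interval of the Gbp2b level began at 52.6 CPM in UT and 10.2 CPM in BPI. Gbp4 peaked at 121 CPM in BPI, Gbp8 at 148 CPM in BP replicate 1, Gbp9 at 90.1 CPM in BPI and Gbp6 at 73.4 CPM in BP replicate 1.

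BP, UT and BPI lay above both IgG libraries for 10 of 10 members each in microglia-like cells (14.8%, 26.4% and 24.4% of genes tested), and CD40 for 2 (33.5%). The median log2 fold change was 4.70 for BP, 4.62 for BPI and 5.26 for UT, against -0.044, -0.089 and -0.077 over all genes. Counting Gbp2b by its fold over the floor of 3 UMIs left these medians as they were. No member and no other gene passed edgeR's test (0.0% of 12417 for BP, BPI and CD40, 0.0% of 10080 for UT). With no filter on low counts it called 10 members for BP (1.38% of genes), 9 for BPI (0.525%), 9 for UT (2.23%) and 0 for CD40 (0.149%). At an unadjusted p under 0.05 there were 10 members for BP (4.78% of genes), 10 for BPI (3.16%), 9 for UT (12.5%) and 0 for CD40 (0.443%). Every count of 10 members in this class includes Gbp2b, with no IgG UMI, and Gbp10, with 1 UMI in IgG replicate 1 and 0 in IgG replicate 2. Neither has a usable baseline, and a count of 9 includes at least 1 of them. DESeq2 called 5 for BP (0.483% of genes), 4 for BPI (0.175%), 4 for UT (1.41%) and 0 for CD40 (0.0%). BPI against BP called none (edgeR 0.0%, DESeq2 0.0242% of genes), and 0 had an unadjusted p under 0.05 (3.04%). Without BP replicate 2 edgeR called 10 members for BP (7.53% of genes), 10 for BPI (1.68%) and 9 for UT (6.74%). Without BP replicate 1 it called 0 (0.0%), 6 (0.304%) and 8 (4.39%), and without either IgG replicate it called 0 in each (0.0%).

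Monocyte/macrophage markers within the microglia-like cells summed to 2110 CPM in UT, 530 and 1070 CPM in IgG, 1830 and 251 CPM in BP, 698 CPM in BPI and 1120 CPM in CD40. Their part in the result was not tested. Most microglia-like cells of UT and BP replicate 1 belonged to cluster 15 and most of those of the other libraries to cluster 12. Cluster 15 had 9 of 10 microglia markers and also 9 of 12 monocyte/macrophage markers raised, and 0 microglia markers among its 10 leading genes, which included Cxcl13, Cd36 and C1qa. Microglia markers summed to 7700 CPM in UT and 4900 CPM in BP replicate 1, against 8540 to 13100 CPM in the other 5 libraries. Whether the high values of UT and BP replicate 1 are those of microglia therefore cannot be told apart from this difference in cells.

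Endothelial-like cells, which line the vessels that B20 acts on through VEGF, were few. The family summed to 2117 CPM in UT (68 cells), 411 and 227 CPM in IgG (13 and 138 cells), 4309 and 1550.4 CPM in BP (42 and 6 cells), 1518 CPM in BPI (20 cells) and 262 CPM in CD40 (145 cells). BP replicate 1 and UT were high and the libraries of IgG and CD40 low. The value of BP replicate 2 rests on 24 UMIs of the whole family. Gbp2 read 481 CPM in UT, 31.6 and 21.2 CPM in IgG, 1051 and 517 CPM in BP, 288 CPM in BPI and 26.7 CPM in CD40. Gbp5 read 222 CPM in UT, 36.1 and 20.7 CPM in IgG, 562 and 258 CPM in BP, 165 CPM in BPI and 27.1 CPM in CD40. Gbp7 and Gbp4 reached 677 and 665 CPM in BP replicate 1.

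With fewer than 20 endothelial-like cells in 2 libraries, groups were not tested against each other in this class. BP lay above both IgG libraries for 8 of 10 members (13.4% of genes with at least 10 UMIs), UT and BPI for 10 each (41.9% and 23.5%) and CD40 for 1 (31.8%). The BP count says little, since in BP replicate 2 a level of 64.6 CPM is 1 UMI. Gbp2b, Gbp4 and Gbp6 counted as above on 1 UMI each there, and Gbp9 on 2. An upper estimate of free RNA reached 38.9% of the family's UMIs in UT, 35.8% in BP replicate 1, 15.4% in IgG replicate 2 and 5.08% in CD40. In IgG replicate 1, BP replicate 2 and BPI, with 13, 6 and 20 cells, it read 0%, which sets no limit at that depth. Monocyte/macrophage markers (12 of 12 with a UMI) summed in endothelial-like cells to 404 CPM in UT, 58.7 and 77.4 CPM in IgG, 409 and 0 CPM in BP, 54.9 CPM in BPI and 236 CPM in CD40. Tumour markers summed there to 444 CPM in UT, 122 and 423 CPM in IgG and 489 and 129 CPM in BP. In BPI they read 68.7 CPM and in CD40 285 CPM, against 344 to 1310 CPM in tumour-like cells. Cluster 0.1 (100 cells, 60 of them from IgG replicate 2) had 10 of 10 tumour markers raised beside its endothelial ones. Microglia markers reached 1490 CPM in BP replicate 2. The part of free RNA and of these lists in the levels was not tested.

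T-like cells varied least in the family of the 5 classes, with IgG replicate 2 and CD40 lower than the other libraries. The sum was 765 CPM in UT, 868 and 374 CPM in IgG, 791 and 881 CPM in BP, 915 CPM in BPI and 441 CPM in CD40. IgG replicate 1 lay beside BP and BPI, and the IgG and BP libraries overlapped. The highest library was 2.45 times the lowest, against 18.7 times in tumour-like, 31.3 times in monocyte/macrophage-like, 20.6 times in microglia-like and 19.0 times in endothelial-like cells. BP replicate 2 was 1.01 times and BPI 1.05 times IgG replicate 1, and CD40 was 1.18 times IgG replicate 2.

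Gbp7 read 187 CPM in UT, 287 and 129 CPM in IgG, 218 and 292 CPM in BP, 261 CPM in BPI and 157 CPM in CD40 among T-like cells. It was again the leading member, with a mean share of 31.0% of the family's UMIs. Gbp2 read 102 CPM in UT, 49.1 and 32.3 CPM in IgG, 123 and 90.1 CPM in BP, 102 CPM in BPI and 55.8 CPM in CD40, with BP above IgG without overlap. Gbp9 read 125 CPM in UT, 147 and 41.5 CPM in IgG, 81.1 and 130.5 CPM in BP, 128 CPM in BPI and 54.5 CPM in CD40. It took a mean of 13.7% of the family's UMIs here, against 5.5% in tumour-like cells. Gbp2b was scarce in T-like cells, at 12.0 CPM or less in every library, yet above tumour-like cells in 4 of 7 libraries. Those 4 values rest on 1 UMI in each IgG library, 5 in BP replicate 2 and 6 in BPI. In IgG replicate 1 the exact 95% interval ran from 0.207 to 45.6 CPM, so this order says little.

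BP lay above both IgG libraries for 3 of 10 members in T-like cells (26.5% of genes tested), UT and BPI for 4 each (38.9% and 31.5%) and CD40 for 1 (37.1%). Of the 10 members 9 passed the filter on low counts and were tested. None was called by edgeR for BP, BPI, CD40 or UT against IgG, although 0.851%, 0.567%, 0.0872% and 2.54% of genes were. DESeq2 called no member either, of 0.497%, 0.225%, 0.0% and 1.82% of genes. Unadjusted p-values under 0.05 were found for 2 members with BP (7.76% of genes), 3 with BPI (6.72%), 1 with CD40 (3.88%) and 1 with UT (13.8%). The median log2 fold change of those tested was 0.22 for BP, 0.66 for BPI and 0.32 for UT, against 0.050, 0.042 and 0.025 over all genes. BPI against BP called no member by edgeR (0.174% of genes) or DESeq2 (0.0%), and none had an unadjusted p under 0.05 (2.61%). For Gbp2 the log2 fold change was 1.27 ± 0.53 with BP (edgeR adjusted p = 0.412), and for Gbp5, which read 41.0 and 32.3 CPM in IgG and 104 CPM in BPI, it was 1.63 ± 0.60 with BPI (adjusted p = 0.337). Monocyte/macrophage markers in T-like cells summed to 933 CPM in CD40, 3140 CPM in BPI and 1430 to 2760 CPM in the other 5, and their part in the result was not tested.

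Whether the groups differ by class was tested directly by subtracting the T-like response from that of another class in 1 edgeR fit, a test added after the values had been seen. In monocyte/macrophage-like cells the BP response exceeded that of T-like cells for 8 of 10 members (1.8% of genes called) and the BPI response for 8 (2.09%). Both counts include Gbp2b, which had 1 UMI in all in the IgG monocyte/macrophage-like cells and 1 in each IgG library of T-like cells, too few for a baseline. The BP count also includes Gbp10 (4.90 ± 1.44), which had 1 UMI in the IgG monocyte/macrophage-like cells and none in either class of IgG replicate 2, and which shares most of its 3′ end with Gbp6. The other 6 members called with BP had 2 to 44 UMIs in each IgG library of monocyte/macrophage-like cells, the fewest for Gbp8 and Gbp4. In each IgG library of T-like cells these 6 had 4 to 35 UMIs, the fewest for Gbp8. For Gbp2 the difference was 2.97 ± 0.66 log2 units with BP (edgeR adjusted p = 0.00118) and 3.85 ± 0.73 with BPI. For Gbp5 it was 3.12 ± 0.71 with BP (adjusted p = 0.00173), for Gbp7 2.24 ± 0.49 (adjusted p = 0.00105) and for Gbp4 4.48 ± 0.71 (adjusted p = 2.4e-07). The members not called were Gbp3 and Gbp9 for BP and Gbp9 and Gbp10 for BPI. Without IgG replicate 2 the BP count was 0 (0.105% of genes), and without IgG replicate 1 or BP replicate 1 it was 2 (0.782% and 0.548%), so the count rests on those libraries. The BPI count was 1 without IgG replicate 2 (0.194%) and 3 without IgG replicate 1 (1.04%).

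Microglia-like cells exceeded T-like cells for 4 members with BP (0.776% of genes), namely Gbp4, Gbp6, Gbp8 and Gbp2b. With BPI they exceeded them for 3 (Gbp4, Gbp6 and Gbp8, 0.342%). Gbp2b had no UMI in the IgG microglia-like cells and so no baseline there. The other members had few UMIs in the 2 IgG libraries, 3 and 10 for Gbp4, 2 and 4 for Gbp6 and 2 and 14 for Gbp8. An upper estimate of free RNA was 107% of the Gbp6 level and 60.6% of the Gbp4 level in IgG replicate 2. Tumour-like cells exceeded T-like cells for Gbp6 alone with BP (2.70 ± 0.70, edgeR adjusted p = 0.0299; 0.396% of genes). With BPI they exceeded them for no member (0.328%), Gbp6 standing at 1.95 ± 0.73 (edgeR adjusted p = 0.614). Between monocyte/macrophage-like and tumour-like cells no member was called with BP (1.2% of genes). For Gbp4 that difference was 2.77 ± 0.95 log2 units (edgeR adjusted p = 0.199). Without BP replicate 1 edgeR called 5 there (0.645%) and without IgG replicate 1 it called 2 (0.966%). With BPI they exceeded them for 4 members (0.79%), namely Gbp5 (2.71 log2 units), Gbp8 (4.48), Gbp4 (4.27) and Gbp2b, which had 1 UMI in all in the IgG monocyte/macrophage-like cells. Without BP replicate 1 the BP counts of microglia-like and tumour-like over T-like cells were 0 each (1.14% and 0.147% of genes), and without BP replicate 2 they were 9 and 8 (3.08% and 1.35%). Without IgG replicate 2 the BPI counts of microglia-like over T-like and of monocyte/macrophage-like over tumour-like cells were 0 each (0.047% and 0.106%), and the latter was 0 with free RNA subtracted too (0.0553%). With free RNA subtracted the counts over T-like cells were 1 with BP and 1 with BPI for microglia-like cells (0.19% and 0.038%) and 0 with BP for tumour-like cells (0.532%). DESeq2 was not run on these differences.

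**Figure D4:**
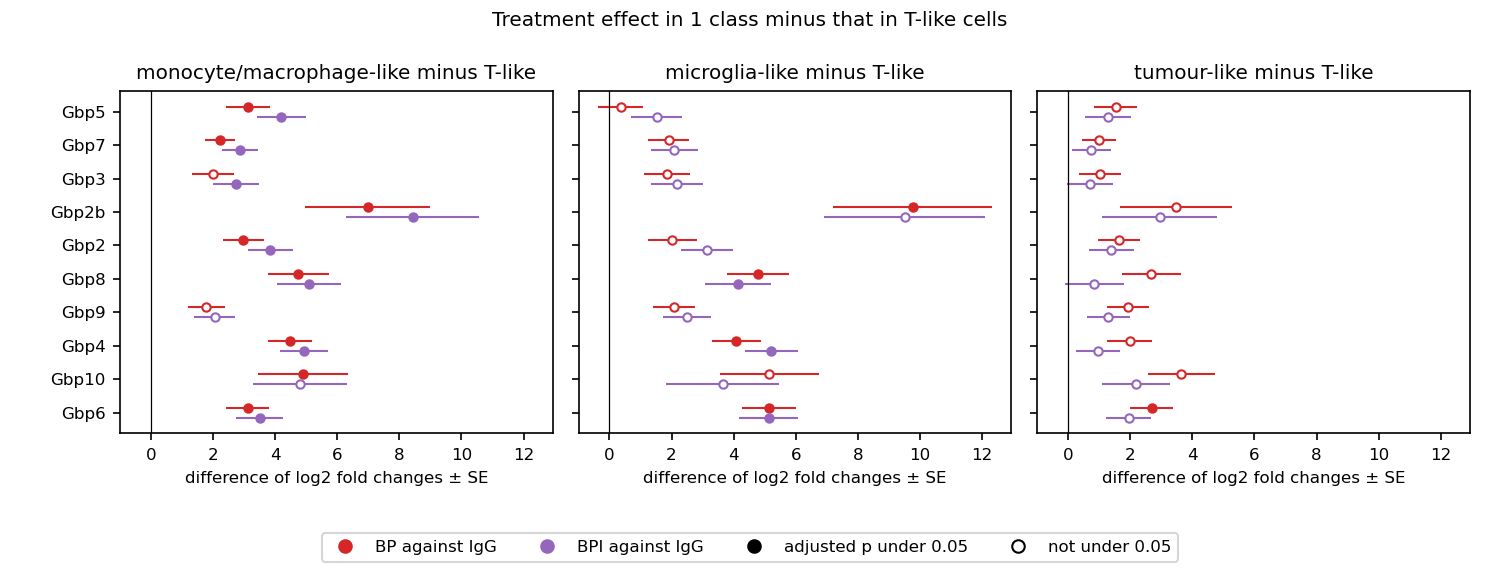
Response over IgG (log2 fold change) in 1 class minus that in T-like cells, for each member with BP and with BPI, from 1 edgeR fit per pair of classes (bars are 1 SE, filled points have an adjusted p under 0.05). Most points for monocyte/macrophage-like minus T-like cells are filled, and 1 is for tumour-like minus T-like cells.

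Levels were also compared between classes inside the same libraries, with library as a block. Monocyte/macrophage-like cells were higher than tumour-like cells for 4 of 10 members by edgeR, where 67.2% of 16138 genes were called, 28.7% higher. These were Gbp2b (log2 difference 3.40 ± 0.67, adjusted p = 0.00102), Gbp5 (1.70 ± 0.44, adjusted p = 0.00531), Gbp2 (1.64 ± 0.59, adjusted p = 0.0302) and Gbp3 (0.85 ± 0.30, adjusted p = 0.0283). Gbp5 was higher in monocyte/macrophage-like than in tumour-like cells in 6 of 7 libraries, Gbp2 and Gbp2b in 5 of 7 and Gbp3 in 4 of 7. Without BP replicate 2 or BPI the count fell from 4 members to 2 (63.7% and 62.9% of genes called in either direction). As 28.7% of all genes were called higher, a count of 4 of 10 does not mark the family out. Microglia-like cells had more Gbp5 (0.93, adjusted p = 0.0352) and less Gbp3 (-0.82, adjusted p = 0.00462) and Gbp7 (-0.82, adjusted p = 0.00847) than tumour-like cells by edgeR (66.2% of genes called, 27.7% higher).

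Monocyte/macrophage-like cells exceeded microglia-like cells for 7 of 10 members (37.9% of 10344 genes called by edgeR, 18.7% higher). Among them were Gbp3 (log2 difference 1.46, adjusted p = 0.000568) and Gbp2 (1.36, adjusted p = 0.0147), and Gbp3, Gbp4 and Gbp7 were higher in 7 of 7 libraries. Without BPI the count was 4 (31.8% of genes). T-like cells exceeded tumour-like cells for 6 members (61.2% of genes, 24.3% higher), led by Gbp9 (2.32 ± 0.60, edgeR adjusted p = 0.00424). Gbp9 was higher in T-like cells in 6 of 7 libraries. The order was not the same in every library. In BP replicate 1 every member was lower in T-like than in tumour-like cells, and in UT every member but Gbp9 and Gbp10 was. Without IgG replicate 1, without BP replicate 2 and without BPI, 1 member was called in that comparison, 2 without CD40 and 3 without IgG replicate 2 or with free RNA subtracted, while 56.5% to 60.9% of genes were called in these fits. Endothelial-like cells, in the 5 libraries with enough of them, exceeded tumour-like cells for 6 members (42.9% of genes, 19.1% higher), with Gbp5 at 1.64 ± 0.14 (edgeR adjusted p = 1.2e-05) and higher in 5 of 5 libraries. With free RNA subtracted 2 members were called there (19.9% of genes), and 4 without BP replicate 1, BPI or IgG replicate 2 (37.5%, 40.4% and 29.2%).

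The balance of the 2 gene blocks differed between libraries in tumour-like cells. The chromosome 5 members gave 31.0% of the family's UMIs in UT, 8.3% and 25.7% in IgG, 32.6% and 11.9% in BP, 16.6% in BPI and 28.0% in CD40. The 3 low values belong to the 3 consecutively named libraries IgG replicate 1, BP replicate 2 and BPI. In T-like cells the share was 35.5% or more, above the 17.6% to 23.2% of monocyte/macrophage-like cells in every library. Gbp2b took 3.69% of the family's UMIs in monocyte/macrophage-like cells and 0.753% in tumour-like cells on average.

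The family's UMIs were also counted cell by cell, after thinning each cell to 3000 UMIs. At this depth a share of cells with no UMI follows the mean level and is not the share of cells that lack the transcripts. Of tumour-like cells, 7.02% in UT, 75.8% and 70.4% in IgG, 2.86% and 66.3% in BP, 38.3% in BPI and 68.2% in CD40 held none. At least 4 UMIs were held by 57.0% in UT, 1.61% and 2.16% in IgG, 73.9% and 3.68% in BP, 15.1% in BPI and 2.32% in CD40. In BPI those 15.1% of tumour-like cells carried 52.2% of the family's UMIs, and in BP replicate 1 the 73.9% carried 92.7%. In the low libraries few cells carried much of the family. The 1.61% and 2.16% in IgG carried 22.1% and 39.5%, the 3.68% in BP replicate 2 carried 31.5% and the 2.32% in CD40 carried 48.7%.

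Monocyte/macrophage-like cells with no family UMI at that depth made up 5.68% in UT, 60.6% and 87.9% in IgG, 7.32% and 36.7% in BP, 14.9% in BPI and 82.8% in CD40. T-like cells with none made up 24.3% in UT, 18.8% and 59.0% in IgG, 22.9% and 20.4% in BP, 19.0% in BPI and 47.7% in CD40, where the IgG values rest on 16 and 39 cells. At 1000 UMIs per cell Gbp2 was seen in 25.3% of tumour-like cells in UT, 0.787% and 1.33% in IgG, 40.8% and 2.63% in BP, 9.21% in BPI and 1.92% in CD40. Its mean was 1.06% ± 0.384 in IgG and 21.7% ± 27.0 in BP (SD, n = 2 each). The 2-sided exact permutation test gave p = 0.333, the smallest that 2 against 2 libraries can give.

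**Figure D5:**
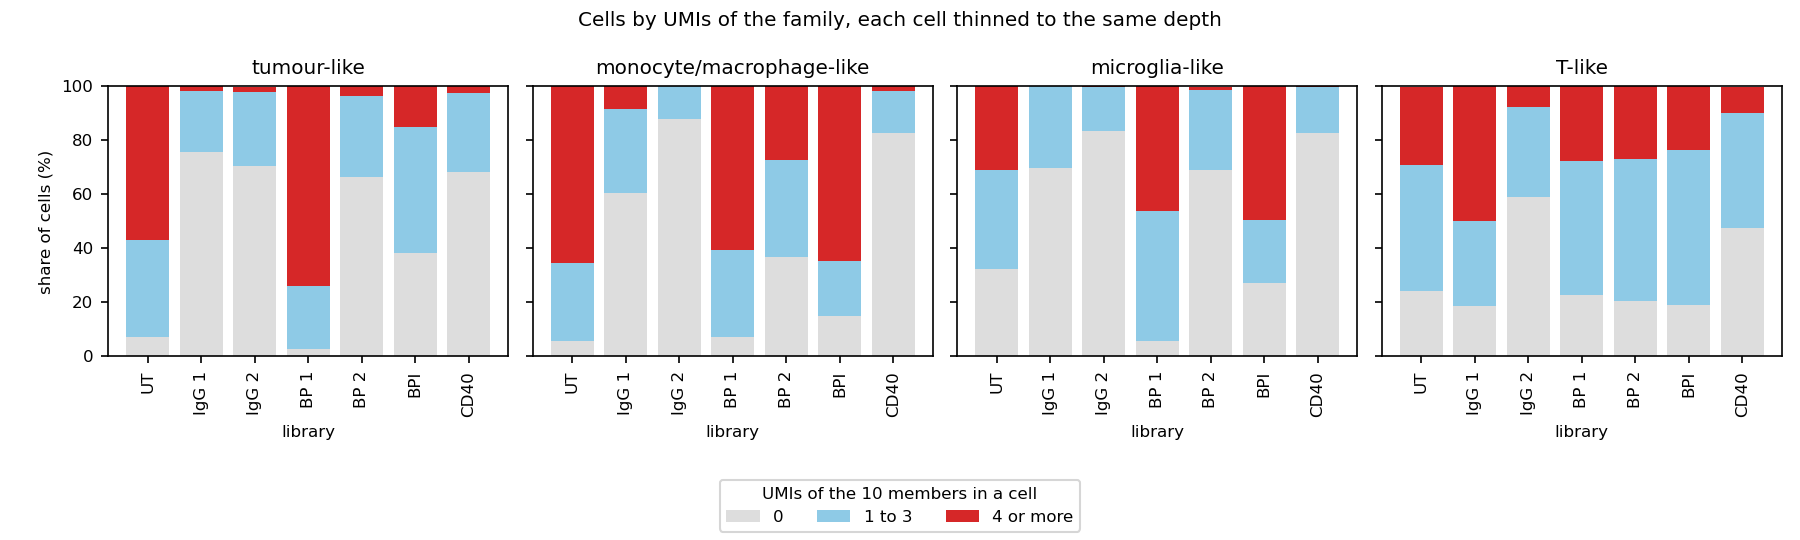
Percent of cells in each library holding 0, 1 to 3, or at least 4 family UMIs after thinning to 3000 UMIs per cell, for 4 classes. UT and BP replicate 1 have few tumour-like cells without a family UMI, whereas the T-like panels resemble one another more.

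Other genes of the interferon pathway were read from lists of upstream and companion genes. Of the immunity-related GTPases, which act beside the guanylate-binding proteins on vacuole membranes, 8 were tested in tumour-like cells with BP. All 8 had a positive log2 fold change and an unadjusted p under 0.05 (1.89% of all genes), with a median of 2.89, and none passed edgeR's adjusted test (0.0% of genes). In monocyte/macrophage-like cells with BPI all 8 were again positive, with a median of 3.63, and none passed (0.0% of genes). In T-like cells with BP 5 of 8 were positive, with a median of 0.32. With CD40 none of 8 was positive in monocyte/macrophage-like cells, where the median was -1.39 and none passed. The share of all genes with a positive value is not given for these contrasts. Counts of positive genes alone, here and in the next paragraph, therefore do not set a list apart from other genes.

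Igtp, an immunity-related GTPase of that list, read 333 CPM in UT, 17.3 and 13.6 CPM in IgG, 243 and 35.6 CPM in BP, 93.0 CPM in BPI and 16.8 CPM in CD40 in tumour-like cells. UT, BP replicate 1 and BPI were its high libraries, as for Gbp2. At 35.6 CPM BP replicate 2 lay far below BP replicate 1, so the BP level of Igtp rests mostly on BP replicate 1. Of 11 signal transducers and regulators tested there with BP, all 11 were positive, 6 with an unadjusted p under 0.05, against the same 1.89% of genes, and none passed. Of 6 genes of the conjugation system that brings these GTPases to membranes, 2 were positive with BP in tumour-like cells, with a median of -0.046 and none passing.

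Ifng, which encodes interferon-gamma, read 287 CPM in UT, 57.3 and 87.7 CPM in IgG, 338 and 405 CPM in BP, 1580 CPM in BPI and 37.2 CPM in CD40 in T-like cells. BPI stood furthest above IgG and CD40 lay below both IgG libraries. By edgeR Ifng rose in T-like cells with BP (2.16 ± 0.50, adjusted p = 0.0107), with BPI (4.48 ± 0.56, adjusted p = 6.0e-09) and with BPI over BP (2.32 ± 0.49, adjusted p = 0.00584). UT, which had no antibody, was called above IgG too (1.86 ± 0.56, edgeR adjusted p = 0.0463). That call was lost with DESeq2 (adjusted p = 0.0917), without IgG replicate 1 or 2 (edgeR, 0.442 and 0.352), with doublets kept (0.0863) and with free RNA subtracted (0.0657). The BPI call over IgG passed in each other fit with those libraries except with UT pooled with IgG (edgeR, adjusted p = 0.0533). The BP call was lost without IgG replicate 1 or 2 (edgeR, adjusted p = 0.375 and 0.491), with doublets kept (0.182), with IgG and BP libraries only (0.116) and with UT pooled with IgG (1.0). The call of BPI over BP was lost with DESeq2 (adjusted p = 0.0761), without IgG replicate 1 or 2 (edgeR, 0.0675 and 0.0854), without BP replicate 1 (0.0569), with doublets kept (1.0) and with free RNA subtracted (0.0609). With the replicate block the BP call over IgG was lost as well (edgeR, adjusted p = 0.263). Of the 5 genes tested in its list of interferon sources and receptors, Ifng was the 1 called with BP by edgeR, against 0.851% of all genes. In tumour-like cells Ifng was at most 0.786 CPM.

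Across 33 points, each a class in 1 library, the members' log2 levels (CPM plus 1) varied together. Pearson's r between 2 members ranged from 0.668 to 0.947 over 45 pairs, with a median of 0.852. The highest value belonged to Gbp4 with Gbp8 and Gbp4 with Gbp9, which overlap on the same strand. Gbp8 with Gbp9, which overlap too, gave 0.88. Gbp6 with Gbp10, which share most of their 3′ ends, gave 0.896. The part of shared reads in these values was not tested. Among all other genes, Irgm2 and Tap1, a peptide transporter of antigen presentation, each stood among the 5 most alike for 7 members, and Igtp for 6. Closest to Gbp2 were Tap1 (r = 0.936) and Irgm1 (r = 0.932), and closest to Gbp3 was Psmb9 (r = 0.916), an immunoproteasome subunit. The points share libraries and depth, so these values are a description.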

How the data were processed

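The deposited values were UMI counts per gene and barcode from droplet 3′ single-cell RNA sequencing, from Cell Ranger, version 4 per the file headers but 7.0.1, with mm10, per the submitters' processing notes. Barcodes needed 1000 UMIs, 500 genes and a mitochondrial share of at most 15%; the highest Scrublet scores (0.8% per 1000 cells) were removed. Cells were clustered together (scanpy 1.11.5; 2000 variable genes without the members, 30 components, Leiden resolution 1) and named from markers. Raised meant 20 CPM and 3 times the lower-quartile cluster plus 5 CPM, with at least 3 raised markers needed. Sums of UMI counts for each class and library entered edgeR 4.0.16 (R 4.3.3; quasi-likelihood, TMM, filterByExpr, Benjamini-Hochberg over all genes). DESeq2 1.42.0 and the settings in the closing section were alternatives. Classes needed 20 cells in every library tested. Replicate numbers did not pair the libraries. All intervals are exact 95% intervals and, with the floor of 3 counts, cover counting error only. Scripts were tested on simulated counts. The naming rule was set after the data were seen. Members and gene lists were chosen with earlier results of these data known, and all 10 members were described whatever their values. Genes most alike were the 5 with the highest r among genes of at least 10 mean CPM.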

Additional observations from a re-analysis of the deposited data

Results flagged for a closer look

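The response over IgG differed between cell classes in a direct test of the difference, added after the values were seen. For monocyte/macrophage-like minus T-like cells, 8 members were called with BP (1.8% of all genes) and 8 with BPI (2.09%). Both counts include Gbp2b, with 1 UMI in all in the IgG monocyte/macrophage-like cells, and the BP count includes Gbp10, with 1, so these 2 have no usable baseline. Without IgG replicate 2 these counts were 0 (0.105%) and 1 (0.194%). For microglia-like minus T-like cells, 4 members were called with BP (0.776% of genes) and 3 with BPI (0.342%). The BP count includes Gbp2b, which had 0 UMIs in the IgG microglia-like cells, where Gbp4, Gbp6 and Gbp8 were scarce too. With free RNA subtracted these counts were 1 (0.19%) and 1 (0.038%), and without IgG replicate 2 they were 1 (0.122%) and 0 (0.047%). For tumour-like minus T-like cells, 1 member, Gbp6, was called with BP (0.396% of genes) and 0 without BP replicate 1 (0.147%) or with free RNA subtracted (0.532%), and Gbp6 shares most of its 3′ end with Gbp10. For monocyte/macrophage-like minus tumour-like cells, 4 members, Gbp2b among them, were called with BPI (0.79% of genes) and 0 without IgG replicate 2 (0.106%). All of these used the same IgG libraries, and the IgG T-like values rest on 39 and 57 cells.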

How the results depend on the processing

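With 2 IgG and 2 BP libraries, and 1 each of the others, single libraries set many counts of called members. The share of all genes called moved between these fits too. The ranges below are given without that share and so do not set the members apart from other genes. Leaving out 1 library at a time, the count in monocyte/macrophage-like cells ranged from 0 to 10 for BP, 0 to 10 for BPI and 2 to 10 for UT against IgG, and in microglia-like cells from 0 to 10, 0 to 10 and 0 to 9. For BPI against BP it ranged from 0 to 1 in T-like, 0 to 1 in monocyte/macrophage-like and 0 to 2 in microglia-like cells. Between classes it ranged from 2 to 5 for monocyte/macrophage-like and 2 to 4 for microglia-like over tumour-like cells, 1 to 6 for T-like and 4 to 6 for endothelial-like over tumour-like cells, and 4 to 7 for monocyte/macrophage-like over microglia-like cells. The endothelial-like comparison held no IgG replicate 1 and no BP replicate 2 to leave out. For the differences in response, it ranged from 0 to 9 (BP) and 1 to 9 (BPI) for monocyte/macrophage-like minus T-like, 0 to 9 and 0 to 6 for microglia-like minus T-like, 0 to 8 (BP) for tumour-like minus T-like, and 0 to 5 and 0 to 7 for monocyte/macrophage-like minus tumour-like cells.

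DESeq2 called 5 members for BP and 6 for UT in tumour-like cells, 6, 7 and 8 for BP, BPI and UT in monocyte/macrophage-like cells, and 5, 4 and 4 in microglia-like cells. With no filter on low counts edgeR called 10, 10 and 10 in monocyte/macrophage-like cells (1.97%, 2.8% and 2.92% of genes) and 10, 9 and 9 in microglia-like cells (1.38%, 0.525% and 2.23%), 2 for monocyte/macrophage-like and 1 for T-like over tumour-like cells (45.5% and 42.1%). With cells of at least 2000 UMIs, 1 member was called for UT in monocyte/macrophage-like cells (0.0942%). With free RNA subtracted the counts were 0 there, 3 for T-like and 2 for endothelial-like over tumour-like cells, 1 with BP and 1 with BPI for microglia-like minus T-like cells, 0 for tumour-like minus T-like cells with BP and 0 for monocyte/macrophage-like minus tumour-like cells with BPI. Same-numbered IgG and BP libraries deviated in opposite directions in tumour-like cells (correlation -0.708), where IgG replicate 1 went with BP replicate 2. The correlation was -0.244 in monocyte/macrophage-like, 0.0423 in microglia-like and -0.0489 in T-like cells. The main fits held no term for this. With the replicate block 4 members were called for BP in monocyte/macrophage-like (0.161% of genes) and 1 in microglia-like cells (0.12%), and with the crossed pairing, added after seeing the data, 10 in monocyte/macrophage-like cells (3.21%). With the block the BP call of Ifng in T-like cells was lost (edgeR, adjusted p = 0.263). With UT pooled with IgG, the log2 fold change of Gbp3 in tumour-like cells was -0.16 for BP and -0.48 for BPI. That of Gbp7 with BP in T-like cells ranged from -0.24 without IgG replicate 2 to 0.76 without IgG replicate 1, and was -0.22 without BP replicate 2. Without the tumour-like clusters of 3 markers, 10 members were called for UT in tumour-like cells. Of 2650 member fold changes under an alternative 144 differed in sign, 0 of them called in either fit. The cause of these shifts was not tested.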

Other observations

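Natural killer cells and mural cells were not among the classes compared. In NK-like cells the family summed to 833 CPM in UT, 684 and 475 CPM in IgG, 700.5 and 664 CPM in BP replicates 1 and 2, 767 CPM in BPI and 307 CPM in CD40, so the IgG and BP libraries overlapped, as in T-like cells. Gbp7 led there, from 155 CPM in CD40 to 275 CPM in BPI. In mural-like cells, which wrap the vessels, the sum was 2037 CPM in UT (16 cells), 102 and 215 CPM in IgG (5 and 67 cells), 2436 and 273 CPM in BP (29 and 6 cells), 1091 CPM in BPI (14 cells) and 242 CPM in CD40 (223 cells). UT and BP replicate 1 had the highest levels. An upper estimate of free RNA was 56.6% of the family's UMIs there in UT, 40.1% and 15.9% in IgG, 81.6% and 48.1% in BP, 51.4% in BPI and 31.9% in CD40, and its part in these levels was not tested.

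Dendritic-like cells were present in 4 libraries. Gbp5 read 384 CPM in UT, 348 and 254 CPM in the BP libraries, and 617 CPM in BPI there, on 29, 58, 4 and 13 cells. Gbp7, the leading member of tumour-like and T-like cells, read 51.2 CPM in UT, 28.3 and 63.4 CPM in the BP libraries, and 161 CPM in BPI in those dendritic-like cells. Each lay below Gbp5 of the same library. In BP replicate 2 that order rests on 1 UMI of Gbp7 and 4 of Gbp5, whose exact 95% intervals overlap. The Gbp7 value of BPI rests on 6 UMIs.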
